A study of Capra hircus with 20 samples.

Results

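miR-340, miR-374a and miR-374b are 3 microRNA hairpins whose mature strands were followed here in the goat hypothalamus after birth. Members were all rows of the miRNA table named for these hairpins, both arms included: 6 mature miRNAs of the 683 in the table, namely chi-miR-340-5p, chi-miR-340-3p, chi-miR-374a-5p, chi-miR-374a-3p, chi-miR-374b-5p and chi-miR-374b-3p, where the prefix stands for Capra hircus and is left out from here on. All 6 passed the filter on low values that kept 414 miRNAs. The hairpins were chosen by their measured RPM levels, because members had been seen to lie higher at later ages than at day 1, so every level set against day 1 is a description and carries no p-value. The data go against that description for the strands miR-340-3p and miR-374b-3p, whose mean levels were about the same at all ages.

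A miRNA hairpin is cut into a duplex with a strand from its 5′ side (5p) and a strand from its 3′ side (3p). As a rule 1 strand is loaded into an Argonaute protein and guides it to messenger RNAs, while the partner strand is degraded, so the ratio of 5p to 3p reads is used to describe which strand is kept. In human, the miR-340 hairpin lies in an intron of RNF130, which encodes a RING-finger protein of the ubiquitin system. In human, miR-374a and miR-374b are processed from FTX, a long non-coding transcript beside XIST in the X-inactivation centre, with miR-545 and miR-421 as their close neighbours. The RefSeq gene table of the goat (assembly ARS1.2) gives a similar order: MIR340 lies within RNF130 on chromosome 7, MIR374A is followed by MIR545 on chromosome X, and MIR374B is followed there by MIR421. miR-374a-5p and miR-374b-5p are close relatives in sequence in human, so short reads can be shared between them and the split between these 2 strands is uncertain.

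Small RNA was sequenced from hypothalamus tissue of Jining grey goats at 4 ages, days 1, 60, 120 and 180 after birth, with 5 biological replicates per age according to the series' design text. All animals shared the same housing and free feeding, the labels name no treatment, and those used here give no sex or litter. Values are RPM, miRNA reads put on 1 common total per library. Each miRNA read is a whole mature strand, so RPM needs no correction for length, but strands differ in how well they are captured, and a ratio between strands is not a ratio of molecules. Recovered depth ran from 4017937 to 8324880 reads per library, and members were covered by 23 to 25731 reads. The brain miRNA miR-9-5p, at 62610 to 318675 RPM, the neuroendocrine miR-7-5p, at 9515 to 304600 RPM, and the neuronal miR-124a, at 219 to 2004 RPM, were present in all 20 libraries. One library, replicate 2 of day 1, stood apart, with a median Spearman correlation of 0.873 with the others against 0.918 for the next lowest, and results that rest at day 1 are given with and without it where it matters. In whole tissue, fewer cells of a type and less RNA per cell cannot be told apart.

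The strand that dominated was miR-340-5p, at a mean of 1319 RPM over the 20 libraries, which ranked 55 of 683. It was followed by miR-374b-5p at 681 RPM (rank 89), miR-374a-3p at 260 RPM (rank 125), miR-374a-5p at 180 RPM (rank 143) and miR-340-3p at 146 RPM (rank 151). miR-374b-3p was scarce, at 20.5 RPM (rank 266).

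miR-340-5p, the main strand of its hairpin, lay higher at every later age than at day 1 and was highest at day 120. On day 1 its level was 628, 369, 1095, 783 and 537 RPM in replicates 1 to 5, and at day 60 it was 1311, 1151, 862, 584 and 2444 RPM. On day 120 it was 3146, 1159, 1686, 1443 and 2126 RPM, and at day 180 it was 1179, 1704, 1086, 936 and 2150 RPM. All 5 libraries of day 120 lay above all 5 of day 1, while days 60 and 180 overlapped day 1 in 2 libraries each. The means were 682 ± 275 RPM at day 1, 1270 ± 713 at day 60, 1912 ± 776 at day 120 and 1411 ± 504 at day 180 (SD, n = 5 each). On the log2(RPM + 1) scale the difference from day 1 was 0.82 at day 60, 1.49 at day 120 and 1.07 at day 180, each with an SE of 0.42, or 1.77-fold, 2.81-fold and 2.10-fold. Without replicate 2 of day 1 these differences were 0.63, 1.29 and 0.87.

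miR-340-3p, the partner strand from the same hairpin, did not share this course. Its level was 147, 95.8, 277, 164 and 117 RPM at day 1, and 82.2, 172, 174, 97.9 and 152 RPM at day 60. It was 206, 90.6, 166, 139 and 191 RPM at day 120, and 172, 143, 125, 91.5 and 120 RPM at day 180. The 4 ages overlapped throughout: none of the 15 later libraries lay above the highest day-1 library, and 3 lay below the lowest. Its log2 difference from day 1 was -0.20 at day 60, 0.03 at day 120 and -0.23 at day 180 (SE 0.40 each). These values lie within 1 SE of 0, and with median-of-ratios scaling the value of day 180 was 0.01, so no direction can be given.

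**Figure D1:**
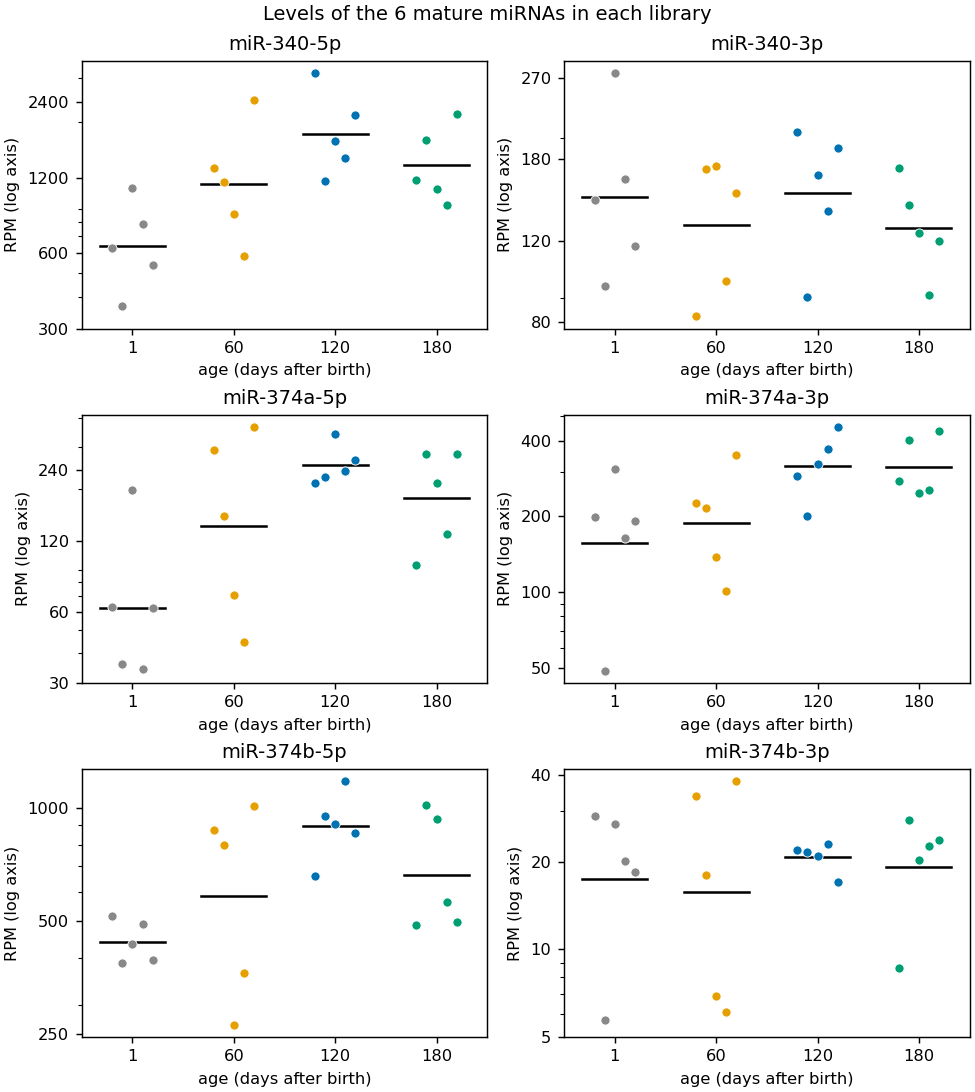
Level of each of the 6 mature miRNAs in each library, in RPM on a log axis, against age in days. Points are single libraries, in the order of replicates 1 to 5 from left to right, and bars are geometric means of 5 libraries. For miR-340-5p, miR-374a-5p and miR-374b-5p the 5 libraries of day 120 sit above the 5 of day 1, while miR-340-3p and miR-374b-3p show no such shift.

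Both strands come from 1 precursor and are read in the same library, so the ratio of their reads is free of library scaling. The ratio of miR-340-5p to miR-340-3p was higher in every later library than in any library of day 1. It shares its contrast and its reads with the levels by which the hairpins were chosen, so against day 1 it is a description too. On day 1 it was 4.26, 3.85, 3.95, 4.79 and 4.61 in replicates 1 to 5. On day 60 it was 15.95, 6.70, 4.95, 5.96 and 16.03, and at day 120 it was 15.3, 12.8, 10.1, 10.4 and 11.2. On day 180 it was 6.85, 11.9, 8.72, 10.2 and 17.97. All 15 later libraries, at 4.95 to 17.97, lay above all 5 day-1 libraries, at 3.85 to 4.79. The counting error of a single log2 ratio was at most 0.08, far below the spread between animals of the later ages. The closest pair was replicate 3 of day 60, at log2 2.31 (counting error 0.06), and replicate 4 of day 1, at 2.26 (0.04). That pair was not separated beyond counting error, so the full separation of day 60 from day 1 is narrow.

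In geometric means, the miR-340 ratio was 4.28 at day 1, 8.72 at day 60, 11.8 at day 120 and 10.5 at day 180. The log2 means were 2.10 ± 0.14, 3.13 ± 0.81, 3.56 ± 0.25 and 3.40 ± 0.52 in the same order (SD, n = 5 each). Day 60 was the most varied age, with replicates 1 and 5 near 16 and the other 3 replicates at 4.95 to 6.70. The difference from day 1 was 1.03 log2 units at day 60 (SE 0.37), 1.46 at day 120 (SE 0.13) and 1.30 at day 180 (SE 0.24), or 2.04-fold, 2.76-fold and 2.47-fold. Without replicate 2 of day 1 these differences were 0.99, 1.43 and 1.26. Between the later ages, no difference passed the exact two-sided permutation test: 0.44 log2 units for day 120 against day 60 (SE 0.38, p = 0.262, adjusted p = 0.393), -0.16 for day 180 against day 120 (SE 0.26, p = 0.548, adjusted p = 0.548) and 0.27 for day 180 against day 60 (SE 0.43, p = 0.532, adjusted p = 0.548). With 5 libraries against 5 the smallest p this test can give is 0.00794, and p-values were adjusted over the 6 pairs of ages. The pairs against day 1, whose p-values are not given, enter that adjustment. The unadjusted permutation p-values of 0.262 to 0.548 do not depend on them.

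The partner strands of the miR-374 hairpins gave less distinct ratios. The ratio of miR-374a-5p to miR-374a-3p was below 1 in 16 of the 20 libraries, so here the 3p strand was usually read more often. Its geometric mean was 0.40 at day 1, 0.74 at day 60, 0.80 at day 120 and 0.58 at day 180, and 5 of the 15 later libraries lay above the highest day-1 library, at 0.74. The log2 difference from day 1 was 0.88 at day 60 (SE 0.45), 1.00 at day 120 (SE 0.39) and 0.54 at day 180 (SE 0.41). That highest library was replicate 2 of day 1, which stood apart. Without it 8 of the 15 later libraries lay above the highest of day 1, at 0.645, and the differences were 1.10, 1.22 and 0.76.

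The ratio of miR-374b-5p to miR-374b-3p was high at all ages, with geometric means of 25.2 at day 1, 37.1 at day 60, 43.1 at day 120 and 34.6 at day 180. None of the 15 later libraries, at 21.0 to 59.7, lay outside the day-1 range of 16.2 to 67.5. The top of that range was replicate 2 of day 1, with 23 reads of miR-374b-3p; the other 4 day-1 libraries were at 16.2 to 24.5, and 14 of the 15 later libraries lay above these 4. The log2 difference from day 1 was 0.56, 0.78 and 0.46 for days 60, 120 and 180 (SE 0.43, 0.40 and 0.46), and without replicate 2 of day 1 it was 0.92, 1.13 and 0.81. Among the later ages no difference of either miR-374 ratio passed the exact permutation test (adjusted p = 0.333 to 0.738). Adjustment was over 6 pairs for each hairpin, those against day 1 included. The largest of these later differences was -0.46 log2 units (SE 0.30), for miR-374a between day 180 and day 120.

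**Figure D2:**
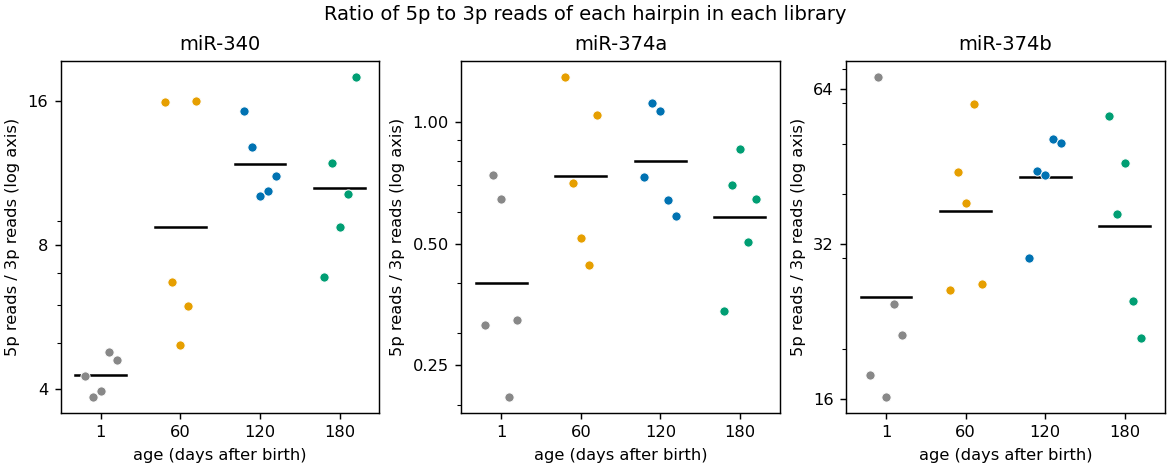
Ratio of 5p to 3p reads of miR-340, miR-374a and miR-374b in each library, on a log axis, against age in days. Points are single libraries and bars are geometric means of 5. The 15 later libraries of miR-340 all sit above the 5 of day 1, which lie between 3.85 and 4.79, while the ages overlap for miR-374a and miR-374b.

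The miR-340 ratio was set against the other hairpins of the table. Both arms of 120 hairpins passed the filter. A ratio that lay above all 5 day-1 libraries in all 15 later ones was found in 1 of the 120 hairpins (0.833%), which was miR-340, and 1 hairpin, miR-542, lay below in all 15. For single ages, ratios of all 5 libraries lay above all 5 of day 1 in 2 hairpins at day 60 (1.67%), 2 at day 120 (1.67%) and 1 at day 180 (0.833%), and miR-340 was among them each time. At day 60 its place rests on a ratio of 4.95 against 4.79. These counts include replicate 2 of day 1 and were not repeated without it over the 120 hairpins. Without it 15 of 15 later libraries lay above day 1 for miR-340 and 14 of 15 for miR-374b, so miR-340 may not stand alone.

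In size the miR-340 shift was not extreme. Ranked by rise against day 1, miR-340 stood at place 23 of 120 at day 60, place 10 at day 120 and place 12 at day 180, and miR-374a and miR-374b at places 21 and 32 at day 120. The SE of miR-340 was 0.39 log2 units in a limma fit over all hairpins, against a median of 0.56. That fit called 23 hairpins at day 60 (19.2%), 8 at day 120 (6.67%) and 3 at day 180 (2.5%) against day 1 at an adjusted p of 0.05. miR-340 was among those of day 120, and neither miR-374 hairpin was called at any age. These calls use the contrast by which the hairpins were chosen and support nothing. The median difference of the 120 hairpins from day 1 was 0.08, 0.12 and -0.04 log2 units at days 60, 120 and 180. The median log2 ratio of each library over these hairpins was 0.13 to 1.27 at day 1 and 0.70 to 1.10 at day 60. It was 0.68 to 1.12 at day 120 and 0.28 to 1.20 at day 180. The middle library was at 0.50, 0.94, 0.88 and 0.84 in the same order, higher at each later age than at day 1. The range of day 1 enclosed that of each later age. The part of the difference between middle libraries in the miR-340 shift was not tested. Among the later ages the fit called 0 of 120 hairpins (0%) in each of 3 comparisons, with 5, 1 and 3 hairpins at an unadjusted p under 0.05 for day 120 against day 60, day 180 against day 120 and day 180 against day 60.

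**Figure D3:**
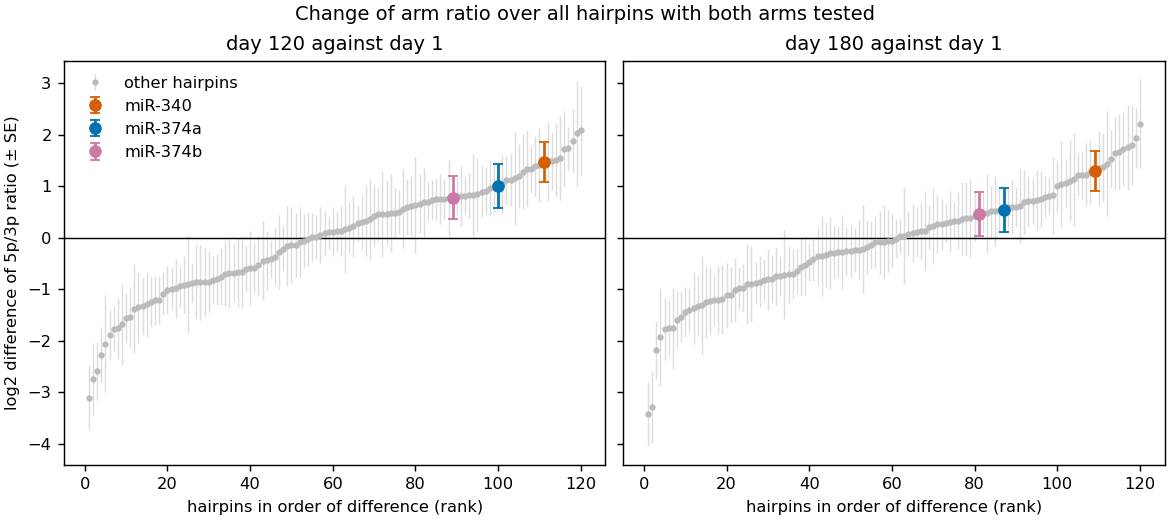
Difference of the log2 ratio of 5p to 3p reads between day 120 and day 1 (left) and day 180 and day 1 (right), for 120 hairpins in order of size, with SE bars from the limma fit. miR-340, at 1.46 and 1.30, lies towards the upper end at places 10 and 12 from the top, and the miR-374 hairpins lie closer to the middle.

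The mean levels of both miR-374 5p strands, like that of miR-340-5p, were highest at day 120 and lowest at day 1. miR-374a-5p was at 62.7, 36.1, 198, 34.2 and 62.2 RPM at day 1 and at 292, 153, 71.0, 44.6 and 366 RPM at day 60. It was at 211, 224, 342, 238 and 265 RPM at day 120 and at 94.8, 281, 212, 128 and 281 RPM at day 180. Every library of day 120 lay above every library of day 1, the highest of which was replicate 3, and day 60 spanned nearly the whole range. The means were 78.7 ± 68.2, 185 ± 139, 256 ± 52.1 and 200 ± 86.1 RPM from day 1 to day 180 (SD, n = 5 each). The log2 difference from day 1 was 1.14 at day 60, 1.99 at day 120 and 1.53 at day 180 (SE 0.55 each), or 2.20-fold, 3.98-fold and 2.89-fold. Without replicate 3 of day 1 the fold was 2.93 at day 60, 5.29 at day 120 and 3.84 at day 180, the highest with a library left out. The lowest was 1.73 at day 60, without replicate 5 of that age. At days 120 and 180 the lowest was 3.43 and 2.49, both without replicate 4 of day 1. Without replicate 2 of day 1 the log2 differences were 0.95, 1.80 and 1.33.

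miR-374b-5p was at 515, 386, 435, 492.6 and 393 RPM at day 1 and at 876, 799, 265, 363 and 1016 RPM at day 60. It was at 661, 957, 911, 1180 and 860 RPM at day 120 and at 489, 1021, 936, 562 and 498 RPM at day 180. Day 120 again lay wholly above day 1, whereas replicates 3 and 4 of day 60 lay below all 5 day-1 libraries. The means were 444 ± 58.0, 664 ± 330, 914 ± 187 and 701 ± 257 RPM from day 1 to day 180, and the log2 difference from day 1 was 0.41, 1.02 and 0.59 on days 60, 120 and 180 (SE 0.40 each). At day 60 this was 1.32-fold, and it was 1.15-fold without replicate 5 and 1.61-fold without replicate 3 of that age.

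The 3p strands of the miR-374 hairpins took different courses. miR-374a-3p was at 199, 48.8, 307, 164 and 192 RPM at day 1 and at 226, 217, 137, 101 and 352 RPM at day 60. It was at 289, 201, 322, 371 and 452 RPM at day 120 and at 278, 404, 248, 254 and 437 RPM at day 180. All later ages overlapped day 1, and 6 of the 15 later libraries lay above its highest. The means were 182 ± 92.5 RPM at day 1, 207 ± 97.0 at day 60, 327 ± 93.4 at day 120 and 324 ± 89.2 at day 180 (SD, n = 5 each). Its log2 difference from day 1 was 0.27, 1.01 and 1.00 on days 60, 120 and 180 (SE 0.46 each). The lowest of all 20 libraries, at 48.8 RPM, was replicate 2 of day 1. Without it the differences were -0.15, 0.59 and 0.59. 

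miR-374b-3p, the scarce partner of miR-374b-5p, was at 28.9, 5.72, 26.9, 20.1 and 18.5 RPM at day 1 and at 33.7, 18.1, 6.89, 6.08 and 38.0 RPM at day 60. It was at 22.01, 21.6, 20.9, 23.0 and 17.1 RPM at day 120 and at 8.60, 27.9, 20.3, 22.7 and 23.7 RPM at day 180. The ages overlapped, and the 2 later libraries above the highest of day 1 were both of day 60. The mean was close to 20 RPM throughout, at 20.03 ± 9.13, 20.5 ± 14.8, 20.9 ± 2.28 and 20.7 ± 7.28 RPM from day 1 to day 180. Its log2 difference from day 1 was -0.14, 0.22 and 0.12 (SE 0.52 each), and without replicate 2 of day 1 it was -0.51, -0.15 and -0.25.

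**Figure D4:**
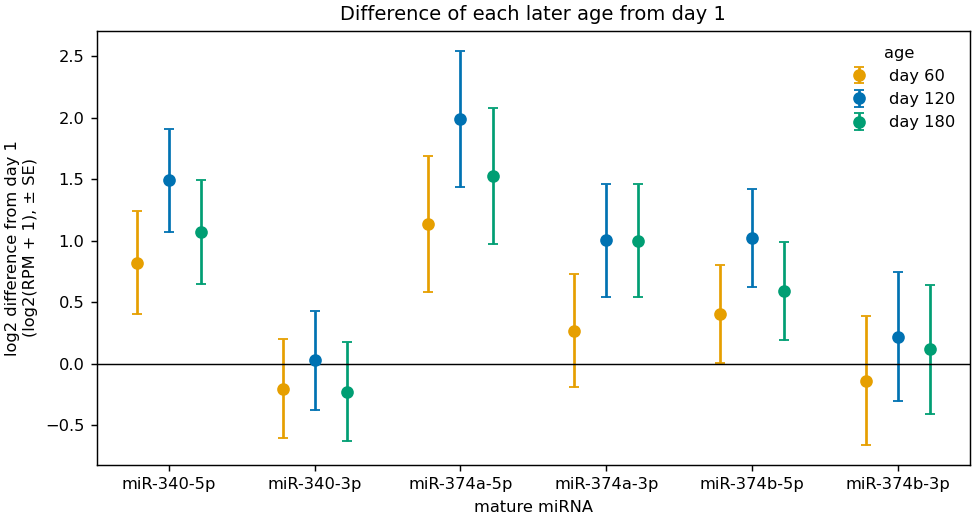
Log2 difference of each later age from day 1 for the 6 mature miRNAs, on the log2(RPM + 1) scale, with SE bars from the limma fit of all 20 libraries. The value of day 120 is the highest of the 3 ages for every strand, from 0.03 for miR-340-3p to 1.99 for miR-374a-5p. For miR-374a-3p days 120 and 180 are nearly equal, at 1.01 and 1.00 (SE 0.46). All values of miR-340-3p and miR-374b-3p lie within 1 SE of 0.

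The members' differences from day 1 were then set beside those of the whole table. On day 120 all 6 members had a log2 difference above 0, with a median of 1.01, while 43.7% of the 414 tested miRNAs did, with a median of -0.12. On day 60, 4 of 6 lay above 0 (46.6% of all tested, members' median 0.34 against -0.04), and at day 180, 5 of 6 did (37.4% of all tested, 0.80 against -0.25). Of the 6 members 3, the 5p strands, had all 5 day-120 libraries above all 5 of day 1, as did 3.86% of all tested miRNAs. No member did at day 60 or at day 180, where 0.725% of all did, and no member had all 5 libraries below day 1 at day 60 (2.42% of all), day 120 (3.38%) or day 180 (2.9%). limma at an adjusted p of 0.05 over all 414 called 2 members higher at day 120, miR-340-5p and miR-374a-5p, against 14 miRNAs in all (3.38%), 6 of them higher (1.45%). It called no member at day 60, with 16 miRNAs called in all (3.86%), or at day 180, with 14 in all (3.38%). These counts rest on the comparison by which the hairpins were picked and support nothing. The call of miR-340-5p stood in 7 of 20 fits with 1 library left out and that of miR-374a-5p in 9; without replicate 2 of day 1, 0 of the 6 members and 8 miRNAs in all were called.

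The comparisons among later ages do not use day 1 and were tested. They share the later libraries with the levels that chose the hairpins, so they are not fully independent of that choice. For day 120 against day 60, all 6 members had a log2 difference above 0, as did 52.4% of all tested miRNAs, with values from 0.23 for miR-340-3p to 0.85 for miR-374a-5p (SE 0.40 to 0.55). None passed limma's test over 414 miRNAs: adjusted p was 0.913 for miR-340-5p (0.67, SE 0.42), miR-374a-5p, miR-374a-3p (0.74, SE 0.46) and miR-374b-5p (0.62, SE 0.40), and at most 0.936 for the other 2. limma called 0 of the 414 miRNAs (0%), with 13 at an unadjusted p under 0.05, and edgeR and DESeq2 called 0 each. Day 180 lay below day 120 in all 6 members, as it did in most miRNAs: 33.8% of all tested lay above 0. The log2 difference was -0.42 for miR-340-5p, -0.46 for miR-374a-5p and -0.43 for miR-374b-5p. It was -0.26 for miR-340-3p (SE 0.40), -0.10 for miR-374b-3p (SE 0.52) and -0.005 for miR-374a-3p (SE 0.46). The last 2 strands lay above 0 in 3 of 9 other settings each, left-out libraries aside, so no direction can be given for them. limma gave each member an adjusted p of 0.997 here, and it called 0 of 414 (0%), with 3 at an unadjusted p under 0.05; edgeR and DESeq2 called 0 each. For day 180 against day 60, 5 of 6 members lay above 0 (37.9% of all tested), miR-374a-3p at 0.73 (SE 0.46, limma adjusted p = 0.86) and the others at 0.39 or below. limma called 0 of 414 (0%) in that comparison too, with 20 at an unadjusted p under 0.05, as did edgeR and DESeq2. No member had all 5 day-180 libraries below all 5 of day 60, as 1.93% of all did. In order of mean level the ages of the 5p strands ran day 120, day 180, day 60 and day 1, and neighbours in that order among the later 3 ages did not differ beyond their spread.

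Single libraries carried much of the spread within an age, and several strands shared it. Replicates 3 and 4 of day 60 held the 2 lowest miR-374b-5p levels of all 20 libraries, at 265 and 363 RPM. They also held the lowest of their age for miR-340-5p, miR-374a-5p, miR-374a-3p and miR-374b-3p. In replicate 5 of day 60 miR-374a-5p and miR-374b-3p were the highest of all 20 libraries, at 366 and 38.0 RPM, and miR-340-5p was second, at 2444 RPM. Across the 20 libraries, Spearman's rho of miR-340-5p was 0.86 with miR-374a-3p and 0.85 with miR-374a-5p, though they lie on different chromosomes, and 0.32 with its own partner miR-340-3p. After subtracting the mean of each age, rho was 0.80, 0.65 and 0.60 in the same order. miR-340-5p went less closely with miR-374b-5p, at 0.65 and at 0.35 after subtraction, and with miR-374b-3p it was at 0.48 and 0.66. The 2 arms of miR-374a gave 0.79, and those of miR-374b 0.58. These are descriptions over 20 libraries that share 4 ages and a common scaling.

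**Figure D5:**
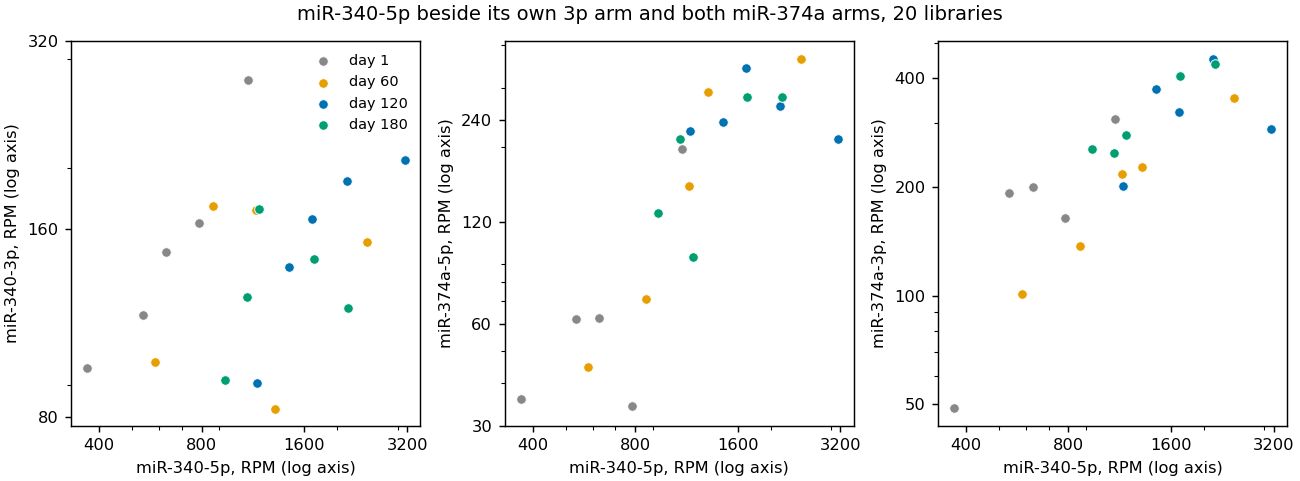
Level of miR-340-5p in RPM (x, log axis) against miR-340-3p, miR-374a-5p and miR-374a-3p in RPM (y, log axes) in the 20 libraries, coloured by age. Spearman's rho is 0.32, 0.85 and 0.86 from left to right; in the left panel the day-1 libraries form the upper left edge of the points.

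miR-421-3p comes from the gene next to MIR374B and was the sole row of the table for miR-421; no value is given here for miR-545 or miR-374c. The mean level of miR-421-3p was lower at each later age than at day 1, unlike that of miR-374b-5p: it was at 88.7 ± 37.2 RPM at day 1, 76.0 ± 39.3 at day 60, 60.1 ± 17.7 at day 120 and 53.5 ± 35.5 at day 180 (SD, n = 5 each). limma did not call it at any age (log2 difference for day 180 against day 1 -0.84, SE 0.50, adjusted p = 0.347). Within ages the 2 strands varied together: Spearman's rho of miR-374b-5p with miR-421-3p was 0.36 over the 20 libraries and 0.79 after subtracting age means. The ratio of miR-374b-5p to miR-421-3p reads was 3.97, 3.23, 4.69, 9.65 and 7.79 at day 1, and 7.01, 9.95, 6.05, 12.1 and 10.1 at day 60. It was 19.7, 12.6, 12.4, 17.8 and 16.7 at day 120, and 21.99, 14.7, 8.67, 14.3 and 17.6 at day 180. Every day-120 library lay above every day-1 library, and 12 of the 15 later libraries did. The level of miR-374b-5p by itself already separated days 120 and 1 in this way. How often ratios of other strand pairs do so was not computed, so the count shows nothing particular to this pair. In geometric means this ratio was 5.39, 8.75, 15.6 and 14.8 from day 1 to day 180. Because miR-374b-5p was picked for its higher later levels, this too is a description.

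Among 351 other named miRNAs, the course over the 20 libraries most like that of miR-340-5p belonged to miR-101-3p, which targets the messenger RNA of the histone methyltransferase EZH2 in human, with a rho of 0.89 and of 0.74 after subtracting age means. For miR-374a-5p it was miR-20a-5p of the miR-17-92 cluster (0.90, and 0.92 after subtraction), and for miR-374a-3p it was miR-148b-5p (0.86 and 0.72). For miR-374b-5p it was miR-361-5p (0.82 and 0.73), and for miR-374b-3p it was miR-369-3p of the DLK1-DIO3 imprinted cluster (0.86 and 0.81). With median-of-ratios scaling the rho of miR-374b-3p with miR-369-3p was 0.71, at rank 11 of the 351. The highest rho of miR-340-3p was 0.61, with miR-151-3p, and with median-of-ratios scaling that pair was at 0.84. Averaged over the 6 members the highest rho values were nearly equal: 0.62 for miR-148b-5p, miR-101-3p, miR-192-5p and miR-542-3p, and 0.61 for miR-21-5p. A high mean rho did not always go with higher levels after day 1. For days 60, 120 and 180 the log2 difference from day 1 was -0.47, -0.0005 and -0.22 for miR-21-5p (SE 0.52 each). For miR-542-3p it was -0.05, 0.40 and 0.46 (SE 0.63 each). miR-101-3p was at 1717 ± 957 RPM at day 1, 4720 ± 2879 at day 60, 9702 ± 3710 at day 120 and 11379 ± 7487 at day 180. Its mean was highest at day 180 through replicate 5, at 24156 RPM; in medians day 120, at 8168 RPM, and day 180, at 7924 RPM, were close. miR-20a-5p was at 251.6 ± 119, 420.9 ± 302, 538 ± 154 and 471 ± 265 RPM from day 1 to day 180, with its highest mean at day 120 as in miR-374a-5p.

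Markers of other cell types were summed in each library and set beside miR-340-5p; the ranges that follow are of summed levels at days 1, 60, 120 and 180. The 3 liver and gut miRNAs, which include miR-192-5p, ran at 550 to 1709, 884 to 3036, 996 to 1489 and 908 to 1494 RPM, and Spearman's rho with miR-340-5p over the 20 libraries was 0.52. The 3 oligodendrocyte miRNAs ran at 417 to 2812, 1419 to 4001, 552 to 5096 and 696 to 7456 RPM (rho 0.42), and the 3 erythroid miRNAs at 90.5 to 1552, 149 to 290, 236 to 1338 and 182 to 349 RPM (rho 0.40). In these lists 3 of 3, 2 of 3 and 0 of 3 markers had a higher mean at day 180 than at day 1.

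Other lists ran against miR-340-5p or beside it. The 8 multiciliated-cell miRNAs ran at 145 to 5128, 72.05 to 395, 114 to 2547 and 55.4 to 2022 RPM (rho -0.50), and 0 of 8 had a higher mean at day 180 than at day 1. Only 4 of these 8 passed the filter on low values. The 4 microglial and immune miRNAs ran at 90.0 to 221, 144 to 380, 148 to 240 and 143 to 301 RPM (rho -0.46), with 3 of 4 higher. The Spearman correlation was -0.35 for 2 choroid plexus miRNAs, 0.15 for 5 muscle miRNAs and 0.06 for 7 neuronal miRNAs. A higher mean at day 180 than at day 1 was found for 1 of 2, 3 of 5 and 2 of 7 of them. Abundant strands weigh most in such sums: among the neuronal ones, medians were 178626 RPM for miR-9-5p, 57208 for miR-7-5p and 762 for miR-124a. Every list overlapped between day 1 and each later age, and the part of these cell types in the members' levels was not tested. No marker with a row was at 0 in all libraries. For miR-138-5p, miR-142-3p, miR-142-5p, miR-448 and miR-486, also on the lists, no row was found, so they are not in the sums. With the miR-340 ratio of 5p to 3p reads, rho was 0.38 for liver and gut, -0.35 for multiciliated cells, -0.28 for microglia and immune cells, 0.23 for oligodendrocytes, -0.20 for choroid plexus, 0.18 for neurons, 0.17 for erythroid cells and 0.00 for muscle.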

How the data were processed

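The authors deposited 1 table of miRNA values with a column for each of 20 hypothalamus libraries; per the file headers the unit is TPM. Within a library, every low value was a multiple of the same smallest step, with no sign of scaling by length, so the deposited unit was taken as RPM. Total RNA went into NEBNext small RNA libraries, per the labels' protocols, and the submitters' processing notes name Bowtie. Not given in the sources used here are its version, the genome build and the miRNA catalogue. Reads recovered from that step were whole for 100% of values below 1000 reads (tolerance 0.1 read). Library totals ran from 4017937 to 8324880 reads. The counts of any 2 libraries of an age differed by more than sampling noise (chi-square per degree of freedom of at least 357 in 40 pairs).

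Levels were analysed with limma (version 3.58.1, R 4.3.3; eBayes with trend, two-sided tests) on log2(RPM + 1), with all 20 libraries in 1 fit of 4 age means and no covariate, over 414 miRNAs at 1 RPM or more in at least 5 libraries. Calls used Benjamini-Hochberg adjusted p at 0.05 over all of them. Folds were taken from log2(RPM + 1) values and understate changes of scarce miRNAs. The 5p to 3p ratio of each hairpin was taken on recovered reads and compared by exact permutation of libraries (SciPy 1.17.1). All 6 pairs of ages were planned; p-values against day 1 are not given, because the hairpins were picked for their levels against day 1. The ratios of miR-374a and miR-374b and the fit over all hairpins were added after the data were seen. The p-values measure the spread between these libraries, taken as separate animals on the word of the design text.

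Alternatives tried: pseudocounts of 0.1 and 5, a filter of 10 RPM and none, median-of-ratios scaling, only the 2 ages compared, the replicate number as a block, each library left out, and, on recovered reads, edgeR (version 4.0.16) and DESeq2 (version 1.42.0). Fits were tested on simulated data. Other miRNAs named are those of the FTX list, the 5 with the highest mean Spearman's rho over members and the highest for each member; miR-542 and miR-9-5p, miR-7-5p and miR-124a as tissue markers were named besides, miR-542 after its values were seen. The members and lists were chosen with earlier results of these data known. No mature sequences were used here, so base composition and seed partners were not analysed. Gene names and neighbours come from the RefSeq table of ARS1.2, without its coordinates.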

Additional observations from a re-analysis of the deposited data

Results flagged for a closer look

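Of 36 groups of 5 libraries (6 members and 3 ratios at 4 ages), 2 held a library whose gap to its nearest neighbour exceeded Dixon's critical value of 0.71 of the range; chance flags about 1 in 20 groups. In replicate 3 of day 1 miR-374a-5p was at 198 RPM (gap 0.83 of the range), against 34.2 to 62.7 RPM in the other 4 libraries of that age. In replicate 2 of day 1 the ratio of miR-374b-5p to miR-374b-3p reads was 67.5 (gap 0.84 of the range), against 16.2 to 24.5 in the other 4, with 23 reads of the 3p strand in that library.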

How the results depend on the processing

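The miR-340 ratio kept its direction against day 1 in every setting run: over left-out libraries the log2 difference was 0.81 to 1.23 at day 60, 1.37 to 1.52 at day 120 and 1.11 to 1.46 at day 180. Among the later ages it passed in none, with left-out ranges of 0.23 to 0.66 for day 120 against day 60, -0.36 to -0.01 for day 180 against day 120 and 0.07 to 0.49 for day 180 against day 60. Counts of called miRNAs moved far more, and the cause was not tested. For day 60 against day 1 the 16 calls became 9 with no filter, 40 with median-of-ratios scaling, 4 with only the 2 ages fitted, 57 with edgeR, 86 with DESeq2 and 2 to 43 with a library left out. For day 120 against day 1 the 14 became 36 with median-of-ratios scaling, 4 with only the 2 ages, 43 with edgeR, 74 with DESeq2 and 7 to 29 with a library left out. For day 180 against day 1 the 14 became 7 with a pseudocount of 0.1, 8 with no filter, 5 with the filter at 10 RPM, 23 with median-of-ratios scaling, 5 with only the 2 ages, 22 with edgeR, 61 with DESeq2 and 5 to 31 with a library left out. The share of calls that were higher at day 120 was 42.9%, against 25.6% with edgeR and 27.0% with DESeq2; at day 60 it was 18.8%, against 30%, 35.1% and 38.4% with median-of-ratios scaling, edgeR and DESeq2. The median of all differences for day 180 against day 1 was -0.25, and -0.03 with median-of-ratios scaling. The 3 comparisons among later ages gave 0 calls in every setting.

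On day 120 the calls of miR-340-5p and miR-374a-5p against day 1 stood with a pseudocount of 5, the filter at 10 RPM, median-of-ratios scaling, the replicate block, edgeR and DESeq2, and were lost with a pseudocount of 0.1, no filter and only the 2 ages. Both were lost without replicate 1 or 2 of day 1, 2 of day 60, 1, 3, 4 or 5 of day 120, or 2 or 3 of day 180. That of miR-340-5p was also lost without replicate 5 of day 1, 1 or 3 of day 60 or 1 of day 180, and that of miR-374a-5p without replicate 4 of day 1 or 2 of day 120. miR-374a-5p was also called at day 180 with median-of-ratios scaling and DESeq2, and miR-374b-5p at day 120 with DESeq2.

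Same-numbered libraries showed little sign of pairing: the correlation of their deviations from the age means was over 0.1 in 11 of 30 pairs (-0.71 to 0.54). Its median was 0.07, against -0.05 for libraries of different number. The count over 0.1 was not made for different numbers, so pairing is not excluded. With the replicate number as a block there were 21, 18 and 14 calls for days 60, 120 and 180 against day 1, and 0 among later ages; the paired exact test of the miR-340 ratio, whose smallest possible p is 0.0625, gave adjusted p of 0.375 or more among later ages. Depth limits miR-374b-3p most, at 23 to 244 reads, with a counting error of up to 0.30 log2 units in its ratio; intervals of this kind cover counting error only.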
